A study of Mus musculus with 72 samples.

Results

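Transcript levels of 8 genes known to respond to glucocorticoids or to fasting, Tsc22d3, Txnip, Fkbp5, Sgk1, Klf9, Rhou, Tob2 and Errfi1, were followed in mouse liver and in the suprachiasmatic nucleus (SCN), the central clock of the hypothalamus. The mice ate either a control diet or the MCD diet, which lacks methionine and choline and is used to produce fatty, inflamed livers in rodents. The genes were picked by symbol, after Tsc22d3, Txnip, Rhou and Tob2 had been found higher in SCN on MCD at circadian time 4 h (CT04). All 8 were listed in both tables of gene counts, 8 of 22823 genes in liver and 8 of 15759 genes in SCN, and all 8 were among the 20249 liver genes and 15759 SCN genes left by the filter on low counts. Because the SCN difference at CT04 chose the genes, it is given here as a description without a test. Tests were run on liver and on the other 5 times in SCN.

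The mice were C57BL/6 (C57BL/6J in the protocol text), 8 to 12 weeks old when bought, housed singly and fed freely. Either diet, equal in energy, was given for 10 days in 12 h of light and 12 h of darkness and for day 11 in constant darkness. On day 11 they were killed at CT00, CT04, CT08, CT12, CT16 or CT20, where CT00 is the start of the subjective day. RNA of the left liver lobe and of the SCN, cut by laser from stained brain sections, was sequenced in 72 libraries. Each of the 24 combinations of tissue, diet and time was a group of 3 libraries, 2 from males and 1 from a female. The protocol text speaks of males alone, and the sample labels name the females. Nothing says which liver and which SCN came from 1 mouse, and bulk tissue cannot tell fewer cells of a type from less RNA per cell.

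Glucocorticoids are steroid hormones of the adrenal cortex. They enter cells and bind the glucocorticoid receptor, which moves to the nucleus and activates genes that carry its response element. Their release follows a daily rhythm driven by the SCN and, in nocturnal rodents, rises toward the start of the active phase, near CT12. They also rise in fasting and stress. Fasting lowers insulin signalling, which lets FoxO transcription factors enter the nucleus, while sugar phosphates activate MondoA and ChREBP, which bind paired E-boxes. Tsc22d3 encodes GILZ, a leucine zipper protein that mediates anti-inflammatory actions of glucocorticoids. Fkbp5 encodes a co-chaperone of the receptor that lowers its affinity for hormone. Sgk1 encodes a kinase that controls ion channels and phosphorylates FoxO factors, and Klf9 encodes a zinc-finger transcription factor. Txnip encodes an arrestin-like protein that binds thioredoxin and limits glucose uptake. Errfi1 encodes an inhibitor of the epidermal growth factor receptor, Rhou an atypical small GTPase, and Tob2 an antiproliferative protein of the BTG/TOB family that recruits the deadenylase of mRNA.

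The start sites of the 8 genes were searched for letters of the response elements, since the 8 genes were named for shared regulators. RefSeq (build GRCm38.p6) gave 16 windows for the 8 genes, each with 250 bases before and 50 bases after an annotated start, and the same search was made on both strands of 32851 such windows of all genes. The 5 windows with a match other than the half-site alone are printed 5′ to 3′ on the strand of the gene, with the matched letters in capitals.
Sgk1, chr10:21993640-21993939, plus strand: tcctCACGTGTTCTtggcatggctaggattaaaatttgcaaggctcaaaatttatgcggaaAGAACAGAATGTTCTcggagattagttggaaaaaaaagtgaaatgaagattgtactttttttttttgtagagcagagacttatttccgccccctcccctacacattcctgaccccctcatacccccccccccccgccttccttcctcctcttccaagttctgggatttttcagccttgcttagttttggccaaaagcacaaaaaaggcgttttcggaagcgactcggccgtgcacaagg
Txnip, chr3:96557707-96558006, plus strand: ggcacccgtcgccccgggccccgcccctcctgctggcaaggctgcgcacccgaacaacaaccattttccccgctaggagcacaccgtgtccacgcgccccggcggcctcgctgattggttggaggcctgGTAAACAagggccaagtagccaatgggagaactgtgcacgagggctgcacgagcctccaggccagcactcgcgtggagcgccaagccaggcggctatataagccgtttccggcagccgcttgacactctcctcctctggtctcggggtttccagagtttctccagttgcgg
Klf9, chr19:23140976-23141275, plus strand: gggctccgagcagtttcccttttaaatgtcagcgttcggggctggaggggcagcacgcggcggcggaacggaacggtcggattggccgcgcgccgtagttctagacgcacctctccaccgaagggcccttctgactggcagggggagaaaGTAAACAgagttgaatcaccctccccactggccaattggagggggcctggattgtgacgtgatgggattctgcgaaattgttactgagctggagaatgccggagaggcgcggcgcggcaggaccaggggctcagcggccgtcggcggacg
Fkbp5, chr17:28486100-28486399, minus strand: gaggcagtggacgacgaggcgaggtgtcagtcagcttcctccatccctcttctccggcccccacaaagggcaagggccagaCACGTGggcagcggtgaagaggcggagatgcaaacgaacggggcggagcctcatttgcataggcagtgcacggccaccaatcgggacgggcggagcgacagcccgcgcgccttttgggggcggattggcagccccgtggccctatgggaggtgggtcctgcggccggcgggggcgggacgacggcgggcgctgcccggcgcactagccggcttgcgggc
Errfi1, chr4:150854820-150855119, plus strand: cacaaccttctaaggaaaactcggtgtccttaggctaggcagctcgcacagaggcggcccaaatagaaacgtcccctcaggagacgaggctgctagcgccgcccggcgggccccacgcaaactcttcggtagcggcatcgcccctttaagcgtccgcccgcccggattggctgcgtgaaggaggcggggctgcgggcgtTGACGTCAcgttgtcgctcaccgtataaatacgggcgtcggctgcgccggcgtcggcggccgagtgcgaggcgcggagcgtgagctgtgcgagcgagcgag
The Sgk1 window belongs to the fifth of 6 annotated starts and was the single member window with the full palindrome of the glucocorticoid response element, AGAACA and TGTTCT with 3 bases between them, whose first base lay at -189 from the start. Of all windows 3 held that palindrome (0.00913%), and 54 (0.164%) held it with at most 1 mismatch. The half-site AGAACA was found in 19% of all windows and in 4 windows of 2 members, 3 of Sgk1 and 1 of Tsc22d3. In the Sgk1 window the capitals at the 5′ end join an E-box, CACGTG, at -246 with a half-site that overlaps it at -242 on the other strand. The FoxO site GTAAACA, in 3.65% of all windows, stood at -121 in Txnip and at -100 in Klf9. Fkbp5 had an E-box at -169, a motif of 7.15% of all windows, and Errfi1 a cAMP response element, TGACGTCA, at -51 of its second start, which 1.79% of all windows held. The paired E-box of ChREBP, CACGTG repeated after 5 bases, was in none of the 32851 windows. These matches describe letters in the windows and show neither binding nor its absence.

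Libraries held 52.6 to 86.74 M reads counted on genes in liver (median 64.36 M) and 23.35 to 79.81 M in SCN (median 57.03 M). The members were well counted, with 607 to 117490 reads per library in liver and 236 to 8795 in SCN. Levels are given in CPM, a gene's reads relative to its library's total after TMM scaling within each tissue, and are not compared between genes of different length. Where the libraries of a group are listed singly the female comes last, except in control CT08, where the female comes first, before a and b. The liver library labelled control CT08 (a) stood apart: over 20249 genes its deviations from the mean of all liver libraries correlated at -0.264 with the other controls and at 0.25 with the MCD libraries of that time. MCD CT08 2 correlated about alike with its own diet (0.115) and the other (0.133). Liver libraries also fell into 2 kinds by the mitochondrial gene mt-Nd6, with 21 below 200 CPM (8 control and 13 MCD) and 15 above (10 control and 5 MCD). Markers of hepatocytes (10 of 10) were detected in liver and those of SCN neurons (12 of 12) in SCN. Replicates of a group differed beyond counting noise, but the labels do not describe how each was taken, so p-values measure the spread between these libraries.

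In SCN at CT04, the comparison that chose the genes, 5 members lay above every control library on MCD. Tsc22d3 was at 37.2, 38.9 and 41.5 CPM on control against 75.0, 57.4 and 71.0 CPM on MCD. Txnip was at 20.2, 24.7 and 25.1 CPM on control against 64.4, 47.0 and 45.9 CPM on MCD. Rhou was at 18.7, 19.5 and 16.7 CPM on control against 27.2, 31.7 and 26.1 CPM on MCD. In each of these genes the lowest MCD library stood clear of the highest control. Tob2 followed with 29.3, 23.2 and 25.2 CPM on control against 41.6, 40.9 and 38.4 CPM on MCD. Klf9 differed less, with 95.3, 79.7 and 91.3 CPM on control against 106, 95.6 and 106 CPM on MCD. The lowest MCD library of Klf9 exceeded the highest control by a narrow margin. Sgk1 overlapped, with 10.5, 8.82 and 12.8 CPM against 17.0, 13.7 and 9.96 CPM, as did Fkbp5 and Errfi1.

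The differences at CT04, as the log2 ratio of MCD to control in the edgeR fit, were 1.18 for Txnip, 0.79 for Tsc22d3, 0.64 for Tob2 and 0.63 for Rhou. The largest value among the members not chosen for this time was 0.36 (Sgk1), followed by 0.21 for Klf9, 0.09 for Fkbp5 and -0.08 for Errfi1. A gene is called here where its adjusted p was under 0.05 in edgeR's quasi-likelihood test with Benjamini-Hochberg adjustment over all genes. At CT04 7 of 15759 genes were called (0.0444%), and 4 of them are members because this call chose them, so nothing is read from it. In all 656 genes (4.16%) had every MCD library above every control. At CT04 the microglia and macrophage markers did not overlap between diets. Summed microglia and macrophage markers (9 of 12 in the table, all 9 detected) ran from 124 to 132 CPM on control and from 133 to 151 CPM on MCD. Endothelium and pericyte markers (10 of 10) ran from 156 to 188 CPM against 185 to 226 CPM, and astrocyte markers (8 of 8) from 2637 to 3075 CPM against 2854 to 3338 CPM. Their part in the differences was not tested.

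**Figure D1:**
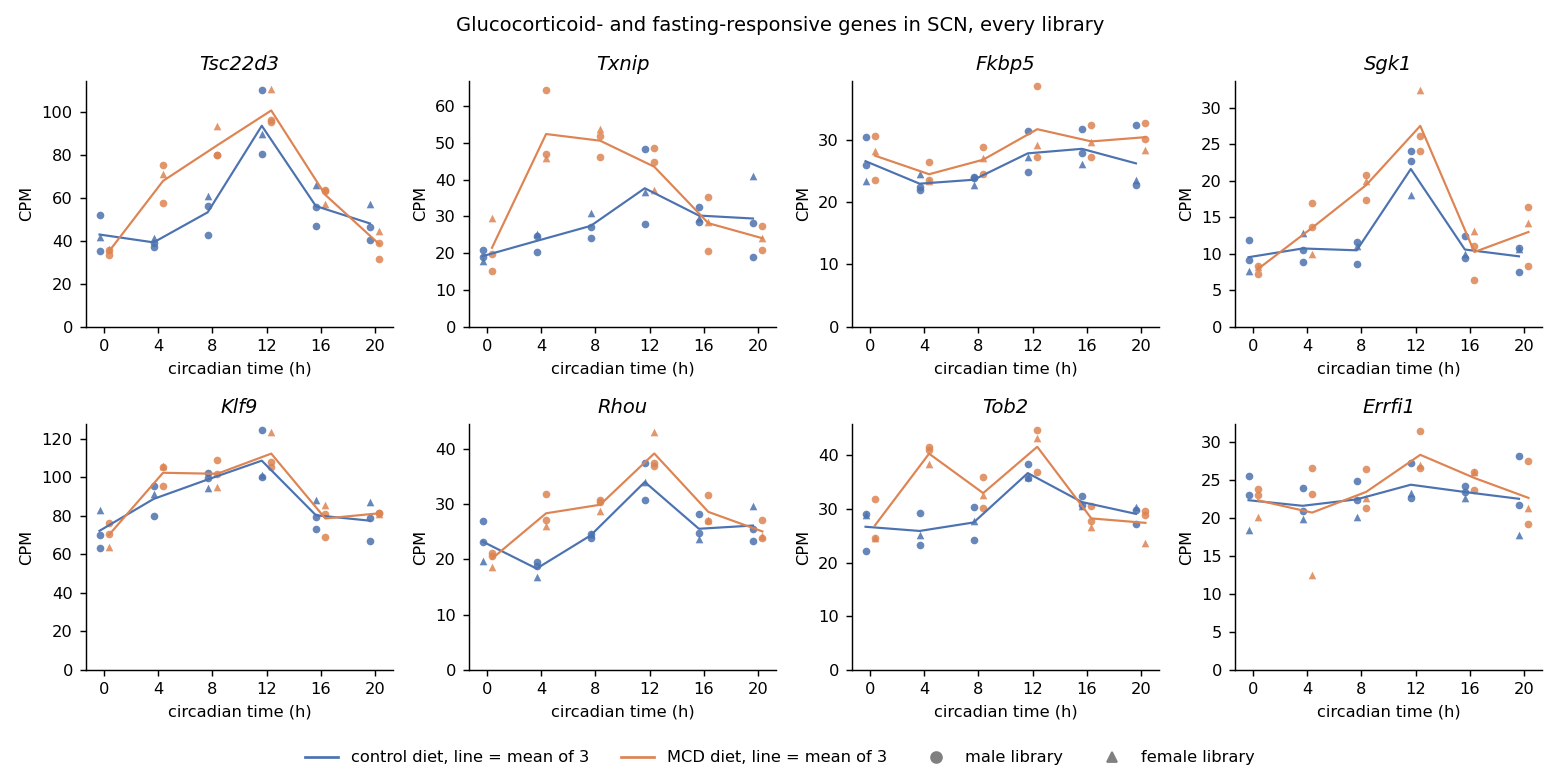
Levels of the 8 genes in SCN (CPM) against circadian time (h), with 1 point per library (circles male, triangles female), blue for control and orange for MCD, and lines through the means of 3. Most genes peaked near CT12 on both diets. Tsc22d3, Txnip, Rhou and Tob2 stood higher on MCD at CT04, which chose them. At CT08 Tsc22d3, Txnip, Sgk1 and Rhou stood higher, none of them called, and Tob2 overlapped.

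The CT08 libraries were not part of the CT04 difference, but they share its fit and estimate of the spread, so they are not fully independent of the choice. At CT08 the same direction was seen in SCN. Tsc22d3 was at 60.6, 42.7 and 56.4 CPM on control against 79.9, 79.8 and 93.5 CPM on MCD. Txnip was at 30.8, 24.2 and 27.2 CPM on control against 52.0, 46.1 and 53.8 CPM on MCD. Sgk1 was at 11.1, 11.6 and 8.61 CPM on control against 17.4, 20.8 and 20.0 CPM on MCD. In these 3 genes no library of one diet reached the other. Rhou also kept apart, with 24.6, 23.8 and 24.6 CPM against 30.6, 30.3 and 28.7 CPM. Fkbp5 did so narrowly, with 22.8, 23.9 and 24.1 CPM against 28.8, 24.6 and 27.0 CPM. In all, 5 of 8 members had every MCD library above every control at CT08, where 4.25% of genes did, while Tob2, Klf9 and Errfi1 overlapped.

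None of these CT08 differences was called in the edgeR fit, nor was any of the 15759 genes (0 genes, 0%). Before adjustment 282 genes and 5 of the 8 members had a p under 0.05. The log2 difference of Tsc22d3 was 0.67, with a 95% interval of 0.38 to 0.96, a p of 5.94e-05 and an adjusted p of 0.937. DESeq2 called Tsc22d3 at CT08 (adjusted p 0.0186), and limma-voom called no member at any of these times. The other intervals were 0.42 to 1.35 for Txnip, 0.39 to 1.39 for Sgk1, 0.06 to 0.53 for Rhou and 0.01 to 0.51 for Tob2. At CT08 the summed microglia markers (125 to 140 CPM on control, 108 to 134 CPM on MCD) and the endothelial ones (165 to 199 against 175 to 198 CPM) overlapped between diets. Astrocyte markers overlapped only narrowly, with 2675 to 2966 CPM on control and 2941 to 3004 CPM on MCD. Their part in the CT08 differences was not tested.

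At the remaining SCN times the diets overlapped for every member except Tob2 at CT16, where the 3 MCD libraries lay just below the controls, as in 3.07% of genes. At CT12 the diets met: Tsc22d3 was at 110.3, 80.5 and 89.6 CPM on control against 96.3, 95.1 and 110.4 CPM on MCD. At CT20 its order turned, with 46.6, 40.5 and 56.9 CPM on control against 39.0, 31.6 and 44.3 CPM on MCD, and the log2 difference was -0.32 (p 0.032, adjusted p 0.726). At CT00 it was -0.29 (p 0.0514), and -0.09 without control CT00 2. No member was called at CT00, CT12, CT16 or CT20, where 1, 0, 1 and 1 genes were (0.00635%, 0%, 0.00635% and 0.00635%). At CT00, CT12 and CT16 no member had an unadjusted p under 0.05, and at CT20 Tsc22d3 alone did. Averaged over the 5 times, 0 members and 5 genes passed (0.0317%), and no member was called by DESeq2 or limma-voom. Sgk1 (0.27, 95% interval 0.04 to 0.49, p 0.0208) and Fkbp5 (0.14, 0.01 to 0.27, p 0.0307) had an unadjusted p under 0.05, as did 611 genes. For the 8 members this 5-time mean lay between 0.02 and 0.27 log2, above the median gene at 0.004.

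Most members followed the time of day in SCN on both diets. A 24 h cosine fitted to the 5 times other than CT04 passed the test on control for 5 of the 8 members, Tsc22d3, Klf9, Sgk1, Txnip and Rhou, where 11.5% of genes were called. On MCD it was called for 6 of 8, Tob2 joining them, where 12.2% of genes were. Tob2 lost this call in 1 of 11 runs under other settings (adjusted p 0.176). Fkbp5 and Errfi1 were called on neither diet, with adjusted p-values of 0.306 to 0.833. The fitted range from trough to peak of Tsc22d3 was 0.91 log2 on control (adjusted p 3.16e-05) and 1.56 log2 on MCD (adjusted p 4.18e-10). Its mean was highest at CT12 on both diets, at 93.5 CPM on control and 100.6 CPM on MCD. Sgk1 ranged over 0.86 log2 on control (adjusted p 0.0194) and 1.38 log2 on MCD (5.58e-05). Its control libraries stood at 24.1, 22.6 and 18.1 CPM at CT12, above every control library of the other times, and its MCD libraries at 24.0, 26.1 and 32.4 CPM. Klf9 had like ranges on both diets, 0.55 and 0.58 log2 (adjusted p 2.78e-04 and 1.35e-04). Its control call was lost in 1 of 11 runs under other settings (adjusted p 0.0582).

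Txnip ranged over 0.88 log2 on control (adjusted p 0.0234) and 1.24 log2 on MCD (1.03e-04), and Rhou over 0.41 (0.0385) and 0.83 log2 (4.59e-06). Tob2 ranged over 0.42 log2 on control (adjusted p 0.0538) and 0.52 log2 on MCD (0.0025). The fitted peaks on control lay at 12.4 h for Tsc22d3, 13.6 h for Txnip, 12.0 h for Sgk1, 10.1 h for Klf9, 13.3 h for Rhou and 13.9 h for Tob2. On MCD they lay at 10.7, 9.36, 10.4, 10.1, 12.1 and 10.4 h in the same order. On control 3 calls rested on single libraries. Txnip lost its call without control CT00 1, CT00 3 or CT12 1 (adjusted p 0.0649, 0.114 and 0.0983), and Sgk1 without control CT00 2, CT00 3 or CT12 1 (0.0624, 0.0992 and 0.0637). Rhou lost it in 7 of 36 runs that left out 1 library, without control CT00 1 or 3, CT08 a, CT12 1 or 3, CT16 2 or CT20 1 (0.0535 to 0.216).

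The fitted peaks of 5 of these 6 genes came earlier on MCD, but the test of the difference in rhythm, added after the data were seen, called no member. It called 1 of 15759 genes (0.00635%). Unadjusted p-values under 0.05 were found for 432 genes and for 4 members, Tsc22d3 (p 1.26e-04, adjusted p 0.414), Txnip (0.00278), Rhou (0.00919) and Tob2 (0.04). DESeq2 called Tsc22d3 (adjusted p 0.0321), and limma-voom called no member. Klf9 had nearly the same fitted course on both diets (p 0.973).

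In liver 3 of the 8 members were higher on MCD over the 6 times, Sgk1, Rhou and Fkbp5, and none was lower. Over all liver genes 46.6% passed the test, 25.3% higher and 21.2% lower, and 3 of 8 members is close to that share. Sgk1 ran from 12.3 to 40.0 CPM on control (median 18.6) and from 21.4 to 103 CPM on MCD (median 36.4, n = 18 each). Its log2 difference was 0.96 ± 0.14 (SE, adjusted p 3.51e-06), a 1.94-fold change. Of the 18 MCD libraries 12 lay above every control library of the same time and none lay below. Rhou ran from 45.9 to 119 CPM on control (median 85.0) and from 69.5 to 156 CPM on MCD (median 113). Its difference was smaller but tighter, 0.43 ± 0.07 log2 (adjusted p 7.03e-06), with 14 of 18 MCD libraries above every control of their time. Fkbp5 ran from 18.1 to 226 CPM on control (median 51.6) and from 36.6 to 158 CPM on MCD (median 107), a difference of 0.72 ± 0.17 log2 (adjusted p 9.22e-04). The diets overlapped widely in Fkbp5, and 7 of 18 MCD libraries lay above every control of their time.

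These calls were also looked at within each kind of liver library. Sgk1 was called in both, with 0.80 log2 in the low mt-Nd6 kind (adjusted p 0.0128) and 1.06 log2 in the high kind (0.00469). Fkbp5 was called in the high kind (1.21 log2, adjusted p 0.0226) and not in the low kind (0.45 log2, 0.21), and Rhou in the low kind (0.42 log2, 0.025) and not in the high kind (0.32 log2, 0.18). When control CT08 (a) was left out, the 3 differences were 1.01, 0.69 and 0.45 log2 for Sgk1, Fkbp5 and Rhou, and all were called. Fkbp5 lost its call when the libraries numbered 2 were left out (0.33 log2, adjusted p 0.122).

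The other 5 members showed no mean difference past the threshold in liver. Tsc22d3 ran from 25.3 to 162 CPM on control (median 87.1) and from 16.7 to 186 CPM on MCD (median 70.2), a difference of -0.04 log2 with a 95% interval of -0.37 to 0.28. Txnip ran from 60.0 to 135 CPM on control (median 76.0) and from 47.9 to 210.3 CPM on MCD (median 80.5), a difference of 0.05 log2 (-0.18 to 0.28). The medians of Tsc22d3 and Txnip lay well within the range of either diet. At CT04 alone the liver difference of Txnip was 0.47 log2 (adjusted p 0.247), and 0.03 log2 without MCD CT04 3. Klf9 differed by -0.07 log2 (-0.34 to 0.21), Tob2 by 0.16 (-0.10 to 0.42) and Errfi1 by -0.11 (-0.55 to 0.33). Tob2 was called without control CT20 3, a female at 81.9 CPM (0.27 log2, adjusted p 0.0222), and in males alone (0.32 log2, 0.0398). The intervals of these 5 members leave room for changes in either direction, as far as -0.55 log2 for Errfi1.

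**Figure D2:**
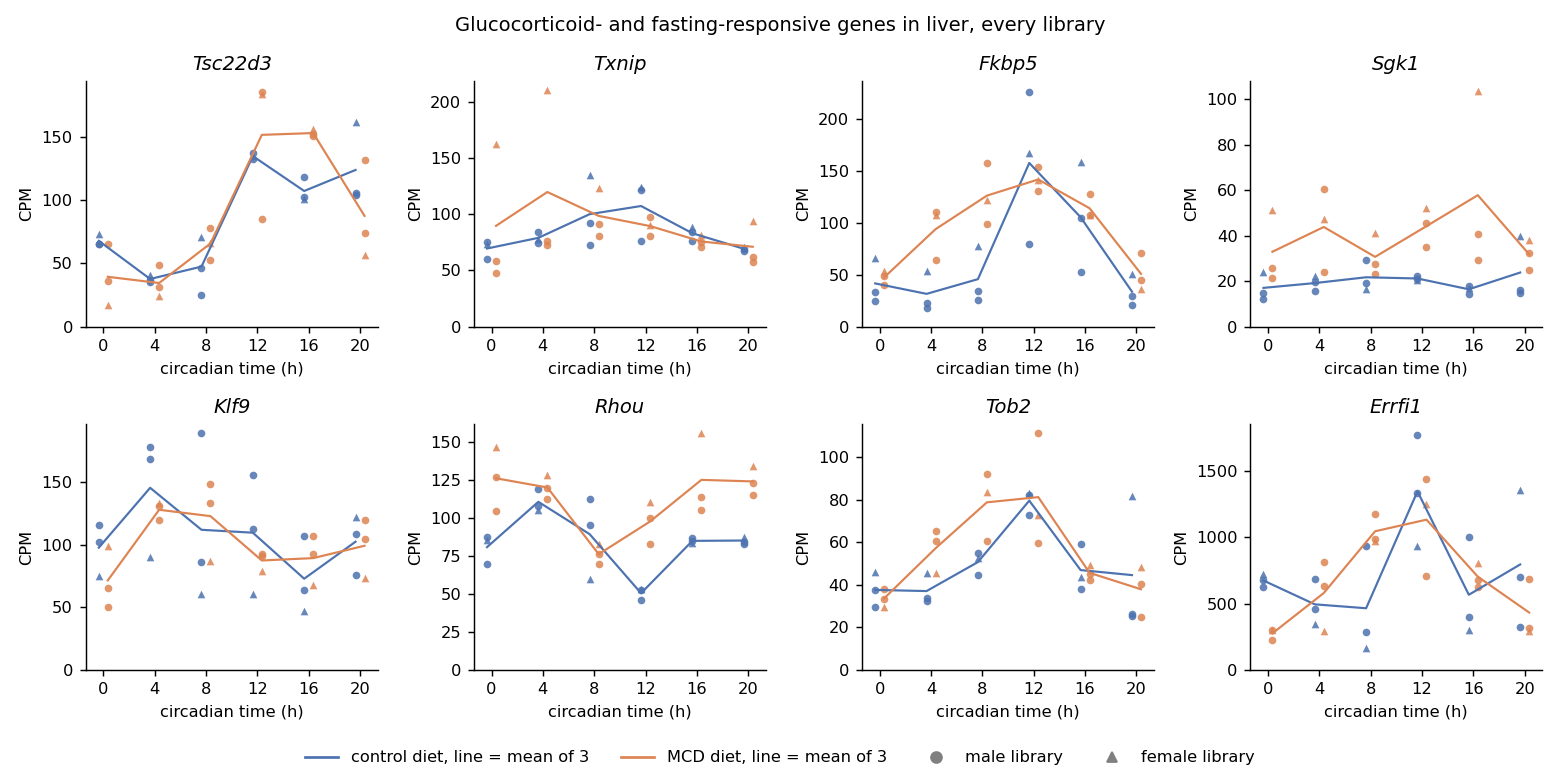
Levels of the 8 genes in liver (CPM) against circadian time (h), drawn as for SCN. Sgk1 and Rhou stood higher on MCD at most times, Fkbp5 at CT04 and CT08, and Tsc22d3 had its highest mean at CT12 on control and at CT16 on MCD.

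At single times 8 of the 48 liver pairs of a member and a time were called, all higher on MCD. From CT00 to CT20 the genes called higher made up 6.57%, 9.46%, 0.548%, 8.08%, 6.52% and 5.7% of all liver genes. At CT04, where 18.2% of genes were called, Fkbp5 was at 22.8, 18.1 and 53.6 CPM on control against 64.6, 110.0 and 107 CPM on MCD (1.67 ± 0.41 log2, adjusted p 0.00655). Its diets did not overlap then, nor at CT08 with 77.4, 33.9 and 25.9 CPM against 99.0, 158 and 122 CPM, where the difference of 1.59 log2 just missed the threshold (adjusted p 0.0533, 1.3% of genes called). At CT12 the diets of Fkbp5 overlapped, with 226, 79.4 and 167 CPM on control against 153, 131 and 141 CPM on MCD. Sgk1 was called at CT04 (1.21 log2, adjusted p 0.0152), at CT12 (1.03, 0.0414, 15.2% of genes) and at CT16 (1.68, 0.00248, 12.5% of genes). At CT16 it stood at 14.3, 17.9 and 16.9 CPM on control against 29.2, 40.7 and 103 CPM on MCD, the last a female. Rhou was called at CT00 (0.64 log2, adjusted p 0.00976, 12.6% of genes), CT12 (0.95, 6.27e-04), CT16 (0.55, 0.0242) and CT20 (0.54, 0.0293, 11.3% of genes). At CT12, its control trough, it stood at 45.9, 52.3 and 53.2 CPM on control against 82.7, 99.8 and 111 CPM on MCD.

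Members with every MCD library above every control numbered 1, 2, 3, 2, 3 and 1 from CT00 to CT20, where 14.3%, 17.2%, 6.57%, 15.6%, 20.1% and 15.5% of genes did. The calls of Fkbp5 at CT04, Sgk1 at CT16 and Rhou at CT12 held in all 36 runs that left out 1 library. Leaving out every library of 1 replicate number ended the call of Fkbp5 without the libraries numbered 1 (adjusted p 0.133) or 2 (0.0822), of Rhou without those numbered 1 (0.0622) or 2 (0.0849), and of Sgk1 without those numbered 3 (0.0708). Rhou lost its call at CT00 without control CT00 2 or MCD CT00 3 (adjusted p 0.0588 and 0.062), at CT16 without any 1 of the control libraries or MCD CT16 3 (0.0513 to 0.214), and at CT20 without any 1 of the 6 libraries of that time (0.0609 to 0.0948). Sgk1 lost it at CT04 without control CT04 1 or 3 or MCD CT04 1 (0.0567 to 0.196) and at CT12 without any 1 of the 6 (0.051 to 0.176). The call missed by Fkbp5 at CT08 was made in 5 of the 36 runs. Without the library labelled control CT08 (a), the CT08 differences were 1.5 log2 for Fkbp5 (adjusted p 0.0702), 0.96 for Errfi1 (0.4, against 1.23 with it) and 0.78 for Sgk1 (0.233, against 0.40). Over the runs that left out 1 library the Errfi1 difference at CT08 ran from 0.83 log2 without control CT08 3 to 2.18 log2 without control CT08 b, and none was called.

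Errfi1 and Tsc22d3 had differences of either sign over the liver day, none of them called. Errfi1 was at 621, 676 and 724 CPM on control against 221, 303 and 301 CPM on MCD at CT00 (-1.29 log2, adjusted p 0.113). At CT08 it was at 168, 288 and 937 CPM on control against 1173, 990.4 and 971 CPM on MCD (1.23 log2, adjusted p 0.317). At both times the diets did not overlap, with MCD below at CT00, as in 13.4% of genes, and above at CT08. Tsc22d3 differed by -0.79 log2 at CT00 (adjusted p 0.196), and without MCD CT00 2 this became -1.37 log2 and was called (0.0268). Tob2 differed by 0.66 log2 at CT04 and 0.64 at CT08 (adjusted p 0.14 and 0.39), and the diets of Tob2 did not overlap at CT08.

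**Figure D3:**
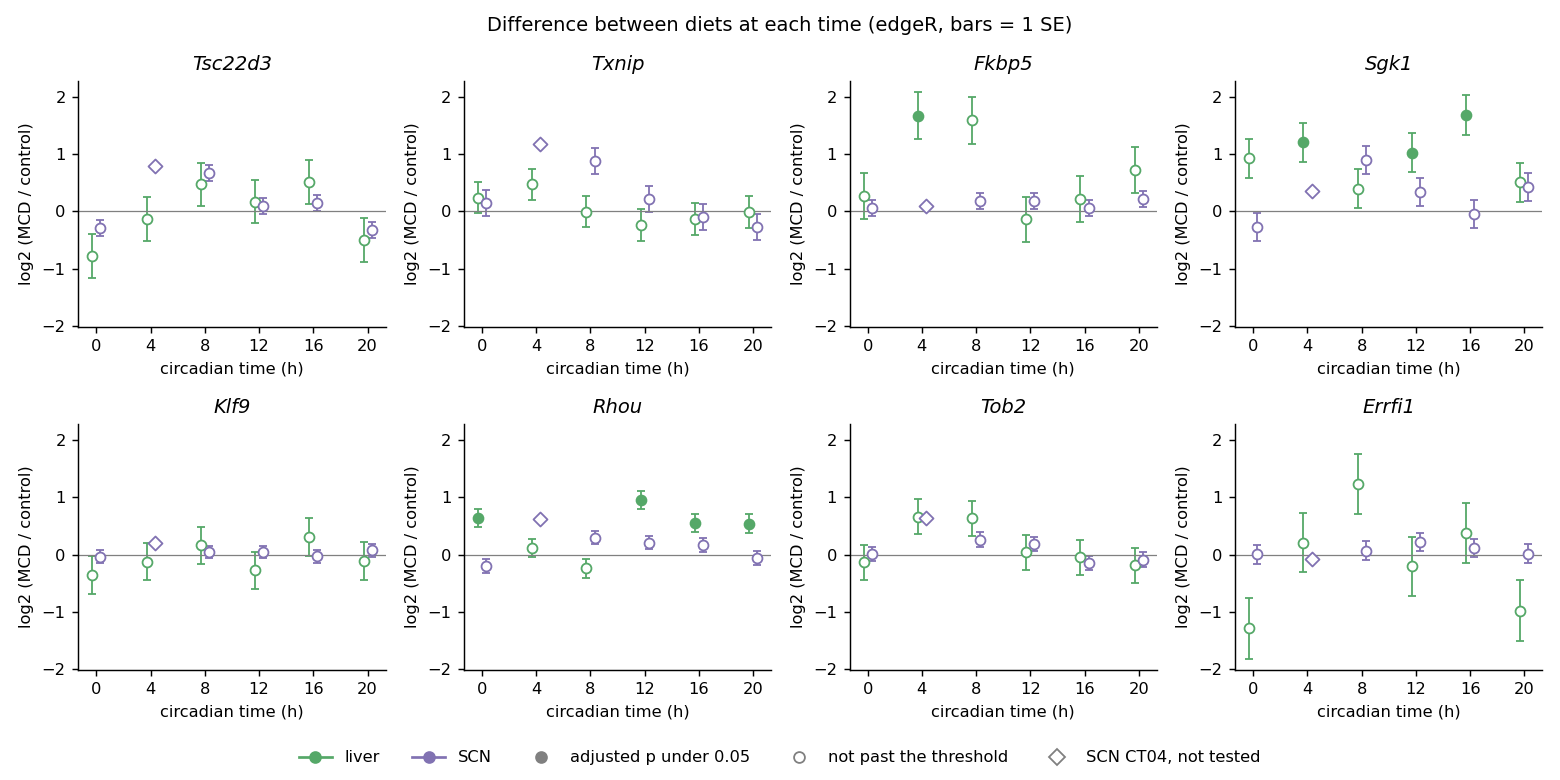
Log2 ratio of MCD to control at each circadian time (h) for the 8 genes in liver (green) and SCN (purple), with bars of 1 standard error. Filled points passed an adjusted p of 0.05, and all 8 of them are in liver. Diamonds mark SCN at CT04, whose values chose the genes and are shown without a test.

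The daily course of the members in liver was called for 4 of 8 on control, Tsc22d3, Fkbp5, Rhou and Tob2, where 17.8% of genes were called, and for these and Errfi1 on MCD, where 28.2% were. Fkbp5 had the widest fitted range on control, 2.21 log2 (adjusted p 1.87e-04) with a peak at 13.4 h, and 1.69 log2 on MCD (0.00151) with a peak at 10.7 h. Its control mean rose 5.00-fold from CT04 to CT12. Tsc22d3 ranged over 1.81 log2 on control (adjusted p 7.85e-04, peak at 16.5 h) and 2.39 log2 on MCD (2.03e-05, peak at 14.5 h). Its control libraries were at 36.8, 35.0 and 41.1 CPM at CT04 and at 133, 137 and 134 CPM at CT12. Rhou had its control peak at 1.72 h, with a range of 0.62 log2 (adjusted p 0.005). On MCD its peak was at 21.1 h, over 0.64 log2 (0.00206). Tob2 ranged over 0.94 log2 on control (adjusted p 0.0284, peak at 12.3 h) and 1.36 log2 on MCD (7.52e-04, peak at 9.54 h). Errfi1 was called on MCD alone (1.99 log2, adjusted p 0.00389, against 0.74 log2 and 0.429 on control). Sgk1, Klf9 and Txnip were called on neither diet, and Sgk1, with the largest diet effect, ranged over 0.24 and 0.44 log2 (adjusted p 0.814 and 0.456).

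The difference in rhythm between diets was called for none of the 8 in liver, where 4.87% of genes were. Unadjusted p-values under 0.05 were found for 4 members, Rhou (p 0.00283, adjusted p 0.054), Errfi1 (0.0152), Fkbp5 (0.0186) and Tsc22d3 (0.0401), and for 4030 genes. DESeq2 called Rhou and Fkbp5 (adjusted p 0.0198 and 0.0414), and limma-voom called no member. Rhou was called without control CT04 3, control CT08 3 or MCD CT16 1 (adjusted p 0.0498, 0.00215 and 0.0484), and Errfi1 without control CT08 b (0.0281). The control call of Tob2 was lost without control CT00 1 or 2, CT04 1 or CT12 1 (adjusted p 0.05 to 0.0865). Without all libraries numbered 1, the control calls of Tsc22d3 (adjusted p 0.103), Fkbp5 (0.102), Rhou (0.264) and Tob2 (0.231) and the MCD calls of Fkbp5 (0.0782), Rhou (0.0863) and Errfi1 (0.195) were lost. Without those numbered 2, the calls of Rhou on control (adjusted p 0.104) and MCD (0.071) and of Tob2 on control (0.344) were lost.

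Females and males of the same diet and time differed in liver for 2 of 8 members, Sgk1 and Txnip, both higher in the 12 females than in the 24 males, where 9.44% of genes were called and 5.17% were higher in females. Female libraries had 39.4 ± 24.1 CPM of Sgk1 and male ones 25.3 ± 11.2 CPM (SD over diets and times), a difference of 0.56 ± 0.15 log2 (SE, adjusted p 0.0128). For Txnip these were 111 ± 42.3 and 76.0 ± 15.2 CPM, a difference of 0.51 ± 0.12 log2 (adjusted p 0.00494). The 2 highest Txnip libraries of liver were MCD females, with 163 CPM at CT00 and 210.3 CPM at CT04, against 47.9 to 76.5 CPM in the 4 males of these groups. Fkbp5 (0.53 log2, adjusted p 0.0554) and Klf9 (-0.42 log2, 0.0716) just missed the threshold. Each group held 1 female, so sex and the replicate number 3 cannot be told apart. Both calls were lost without the libraries numbered 1 (adjusted p 0.141 for Sgk1 and 0.0599 for Txnip) or 2 (0.15 and 0.119).

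The diet effect differed by sex for 1 member, Fkbp5, by -1.08 ± 0.28 log2 in females relative to males (adjusted p 0.0487), where 1.77% of genes were called. On control Fkbp5 ran from 18.1 to 226 CPM in males (median 31.7, n = 12) and from 50.6 to 167 CPM in females (median 72, n = 6). On MCD the medians were 103 CPM in males and 107 CPM in females. The medians of the sexes differed on control and lay close on MCD, and the ranges overlapped on both. This call was lost in 31 of 36 runs that left out 1 library, over which the adjusted p ran from 0.00254 to 0.131, and also without the library labelled control CT08 (a) (0.0509). In SCN Errfi1 alone was called by sex, lower in females by 0.23 log2 (21.0 ± 3.86 against 24.4 ± 2.71 CPM, adjusted p 0.0366, 9.89% of genes called). That call was lost in 7 of 36 runs (adjusted p up to 0.0968), without control CT00 3, CT04 3, CT08 3 or CT20 3, or MCD CT04 3, CT12 3 or CT20 1.

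**Figure D4:**
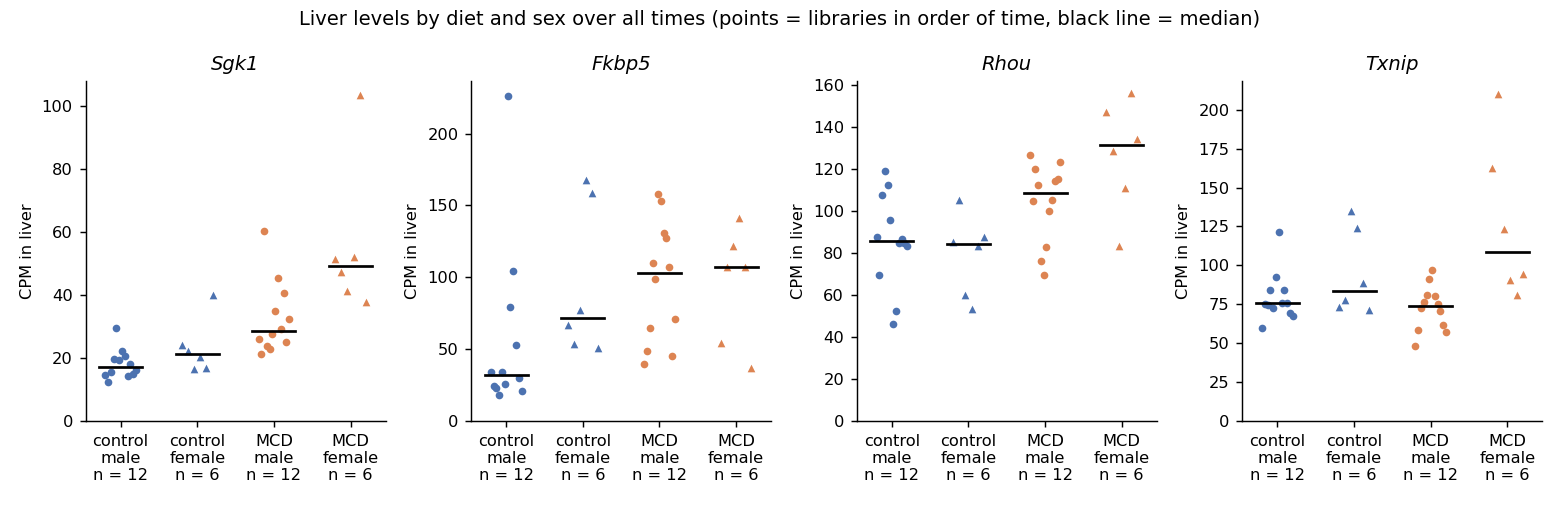
Liver levels (CPM) of Sgk1, Fkbp5, Rhou and Txnip by diet and sex, with 1 point per library in order of time and a black line at the median. Fkbp5 medians were 31.7 CPM in control males and 72 CPM in control females, and 103 and 107 CPM on MCD.

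The diet effects of liver and SCN were compared directly over the 5 times other than CT04, in a fit of 14491 genes that treats all libraries as independent. They differed for 2 of 8 members, where 28.8% of genes were called. Sgk1 had a diet effect larger by 0.64 ± 0.19 log2 in liver (adjusted p 0.00982), and Rhou one larger by 0.40 ± 0.09 log2 (adjusted p 4.34e-04). The remaining members were not called, with differences between -0.27 and 0.39 log2. The largest of these, Fkbp5 (adjusted p 0.131), was called in 2 of 10 runs under other settings, over which it ran from -0.04 to 0.77 log2. For Tsc22d3 the difference was -0.09 log2 (95% interval -0.46 to 0.27), and for Txnip -0.21 log2 (-0.54 to 0.12). The Sgk1 call was lost without the libraries numbered 2 (0.59 log2, adjusted p 0.119).

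Transcripts of the receptor were present in both tissues. Nr3c1, the glucocorticoid receptor, was at 99.1 ± 19.4 CPM in liver and 43.4 ± 6.90 CPM in SCN (SD, n = 36), scaled within each tissue. Hsd11b1, which regenerates active glucocorticoid, was at 519 ± 141 CPM in liver and 7.65 ± 2.06 CPM in SCN. Nr3c2, the mineralocorticoid receptor that also binds glucocorticoids, was at 12.9 ± 3.78 and 19.1 ± 3.17 CPM. In liver 2 of 17 genes of receptor and steroid supply were called higher on MCD and 5 lower, where 25.3% and 21.2% of all liver genes were, with a median of -0.06 log2 beside 0.02 for all genes. The largest called changes were those of Abcb1a, a drug and steroid efflux pump (1.28 log2), Hsp90b1, a chaperone of the endoplasmic reticulum (-0.64), and Nrip1, a nuclear receptor corepressor (0.49). Nr3c1 itself fell from 115 ± 12.4 to 82.8 ± 8.05 CPM (-0.48 log2, adjusted p 1.12e-08). Nr3c1, Nr3c2 and Hsd11b1 were named after their values were seen.

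Of 29 other glucocorticoid targets tested in liver, 15 were called higher on MCD, 4 lower and 10 not, where 25.3% of all liver genes were called higher and 21.2% lower, with a median of 0.49 log2 beside 0.02 for all genes and 0.11 for the 8 members. Lcn2, an acute-phase iron-binding protein, changed by 2.49 log2, Plin4, a lipid droplet protein, by 2.00 and Cyp2b10, a xenobiotic-metabolising enzyme, by 1.99. Of 25 other FoxO and fasting targets 6 were higher, 9 lower and 10 not called (median -0.07 log2). Gadd45b, a stress-response gene, rose by 3.48 log2, Igfbp1, a secreted binder of insulin-like growth factor, by 1.76, and G6pc, the last enzyme of glucose release, fell by 1.03. These fasting genes thus did not share a direction. Of 15 genes of the thioredoxin and MondoA-ChREBP system 4 were higher and 6 lower (median -0.09 log2), led by Khk, ketohexokinase (-0.92), Pklr, liver pyruvate kinase (-0.69), and Mlxipl, which encodes ChREBP (-0.51).

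The same shares of all liver genes, 25.3% higher and 21.2% lower, stand beside the next lists. Among 16 relatives of the members 7 were higher and 3 lower (median 0.21 log2), and Btg2 and Btg3, antiproliferative relatives of Tob2, rose by 1.21 and 1.08 log2, and Rhob, a small GTPase, by 0.87. Of the 5 receptor tyrosine kinases known to bind the Errfi1 protein 3 were lower and none higher. Egfr, the epidermal growth factor receptor, went from 620.2 ± 391 to 151 ± 101 CPM (-2.11 log2, adjusted p 2.27e-08), while the transcript of its inhibitor Errfi1 showed no mean difference past the threshold. Of 14 immediate-early genes 12 were called higher, none lower and 2 not (median 1.72 log2), led by Egr2 (3.36), Fosb (2.80) and Fos (2.26), transcription factors induced within minutes by many stimuli. In liver the summed macrophage markers (11 of 12 detected) had a median of 367 CPM on control and 532 CPM on MCD, over ranges of 288 to 645 and 385 to 756 CPM. The erythrocyte markers (5 of 5) had medians of 273 and 143 CPM, and the hepatocyte markers of 114268 and 116296 CPM. Their part in these changes was not tested.

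In SCN none of these lists held a called gene over the 5 times (edgeR). Unadjusted p-values under 0.05 were found for 7 of 24 other glucocorticoid targets (median 0.14 log2 beside 0.004 for all genes), 3 of 13 immediate-early genes (median 0.14), 2 of 16 relatives and 1 of 22 FoxO and fasting targets, where 611 of all 15759 genes had one. The receptor and steroid, thioredoxin and receptor kinase lists had none.

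**Figure D5:**
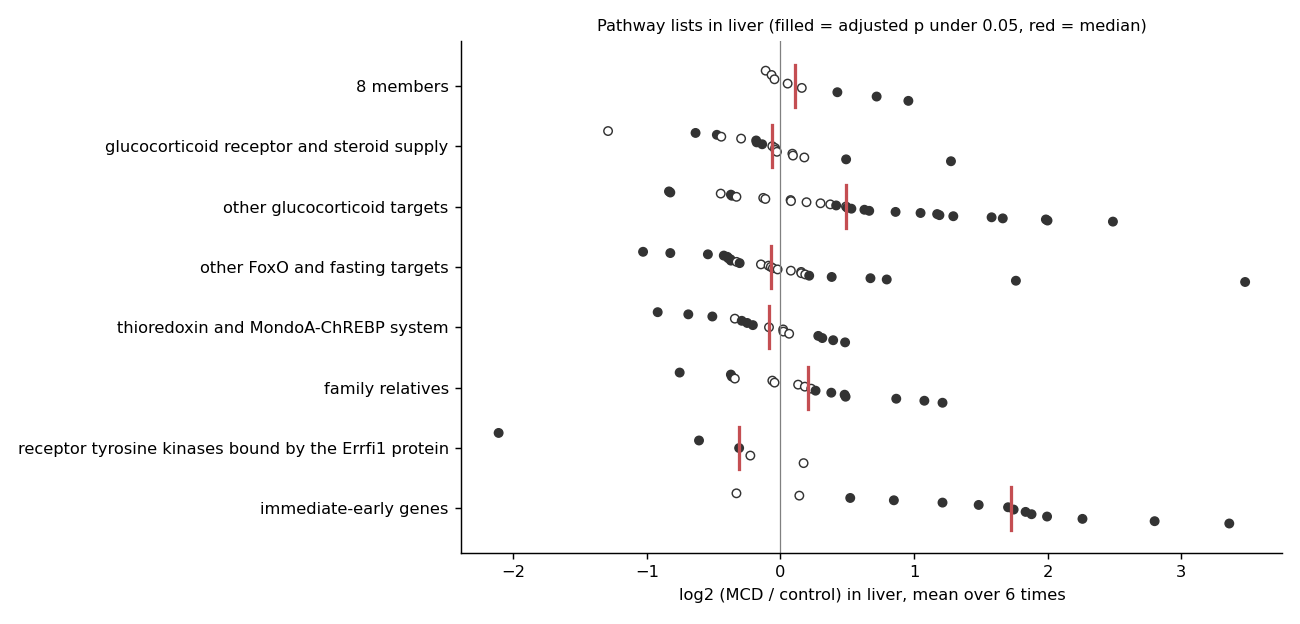
Log2 ratio of MCD to control in liver, averaged over 6 times, for the 8 members and the genes of 7 lists, with 1 point per gene, filled where the adjusted p was under 0.05, and a red line at the median. The medians of other glucocorticoid targets (0.49) and immediate-early genes (1.72) lay above the 0.11 of the 8 members.

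The correlations among the members are given as a description. Over the 36 SCN libraries the 28 pairs of members had a median Pearson r of 0.595 (-0.0243 to 0.834), among libraries that share times and diets and include the CT04 libraries on which 4 of the members were chosen. Within groups of diet and time the median was 0.0982. In liver the medians were 0.109 over all libraries (-0.416 to 0.674) and 0.0548 within groups. The gene most like Tsc22d3 by r was Nat8f7 in SCN (0.853) and Gm16573 in liver (0.923). In SCN the nearest genes were Tm9sf3 for Klf9 (0.864), Zfp24 for Sgk1 (0.787), Arl5b for Tob2 (0.78), Fzd1 for Rhou (0.777), Stau1 for Errfi1 (0.771), Zfp383 for Txnip (0.722) and Fam185a for Fkbp5 (0.687). In liver they were Dhrs9 for Rhou (0.91), St3gal5 for Fkbp5 (0.897), Tanc1 for Sgk1 (0.857), Lipg for Tob2 (0.85), Cnppd1 for Klf9 (0.82), Tob1 for Errfi1 (0.814) and Aldh3a2 for Txnip (0.762). No gene was the nearest to the same member in both tissues. Averaged over Tsc22d3, Txnip, Rhou and Tob2 the highest mean r was that of Paqr8 in SCN (0.702), followed by Nat8f7 (0.696) and Megf10 (0.695), over libraries that include those that chose the 4 genes, and that of Slc25a29 in liver (0.347), followed by Acadl (0.346) and Slc16a7 (0.342).

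Reads of 2 members may be shared with a gene on the opposite strand, since whether the counting used the strand is not given in the sources used here. In the annotation GENCODE M21, exons of Txnip overlap those of Gm15441 and exons of Tob2 those of Gm49476. Tsc22d3 and Sgk1 overlap no other gene, and the other 4 share no exon with one.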

How the data were processed

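The authors deposited 1 table of gene counts per tissue, of whole reads per gene, with columns named for the libraries. Trimmomatic, HISAT2, StringTie and DESeq2 and the build GRCm39 are named, without roles, per the submitters' processing notes. A stranded poly(A) kit was used, per the labels' protocols, and whether the counting used the strand is not given in the sources used here. Columns of values left unused numbered 0. In each tissue the same name stood on 2 columns of control CT08 males. Which replicate each column holds is therefore not known, and these libraries are called a and b.

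From the counts, edgeR 4.0.16 (R 4.3.3) was fitted per tissue on all groups of diet and time, with genes kept by filterByExpr at a minimum count of 10 and TMM scaling. Its quasi-likelihood test was adjusted by Benjamini-Hochberg over all genes at 0.05. CPM used TMM library sizes, and the log2 CPM of the correlations a prior count of 2. The rhythm test was a joint contrast of the time means with a 24 h cosine and sine; sex was an added term, and the tissue difference in a joint fit. DESeq2 1.42.0, limma-voom (limma 3.58.1), other filters and scalings, a replicate block and left-out libraries were alternatives. The fits were checked on simulated counts. Same-numbered libraries did not deviate together over the 16 pairs in each tissue (median r -0.0114 in liver and -0.0103 in SCN), so the numbers do not pair the samples.

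The members, gene lists and marker lists were chosen with earlier results of these data known. Besides the members, the genes named are at most 3 of each list, those called with the largest change, and the gene most like each member by Pearson r among genes of at least 1 CPM on average. Nr3c1, Nr3c2 and Hsd11b1 fall outside this rule and were named after their values were seen. Promoter windows come from RefSeq (GRCm38.p6) and overlaps from GENCODE M21 (GRCm38), matched by symbol for 8 of 8 members, and no coordinate was carried to GRCm39.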

Additional observations from a re-analysis of the deposited data

Results flagged for a closer look

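The effect of diet on Fkbp5 in liver differed between the sexes by -1.08 log2, female minus male, in a test of that difference (edgeR, adjusted p 0.0487). In males alone the diet effect was 1.07 log2 (adjusted p 3.79e-04), and the 6 females of each diet had means of 95.8 ± 53.1 CPM on control and 94.7 ± 40.7 CPM on MCD (SD). The call of the difference was lost in 31 of 36 runs that left out 1 library (adjusted p up to 0.131) and in 3 of 10 others, among them the replicate block (0.0994).

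The effect of diet on 2 members differed between the tissues in a test of the difference over the 5 times without CT04, which called 28.8% of all genes tested. It was larger in liver than in SCN by 0.64 log2 for Sgk1 (adjusted p 0.00982, and 0.119 without the libraries numbered 2) and by 0.40 log2 for Rhou (adjusted p 4.34e-04).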

How the results depend on the processing

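Of 8280 values of the members recomputed under the alternatives, 8087 kept their side of the threshold, 128 lost a call and 65 gained one. No called value reversed, and 159 uncalled values changed sign. With library totals alone in place of TMM the median liver gene shifted to 0.27 log2, 87.3% of its calls were higher in place of 54.4%, and 5 members were called over the 6 times, Txnip and Tob2 added, where 12173 of 20249 genes were called. DESeq2 called 2 members in the liver rhythm difference, 4 by sex in liver, 1 in the SCN rhythm difference and 1 SCN pair of gene and time, and limma-voom 0 by sex in SCN. A filter of 1 CPM in 3 libraries gave 1 member in the liver rhythm difference. The sex-by-diet call numbered 0 without a filter, and 0 without the library labelled control CT08 (a). With the replicate number as a block it was 0 as well (Fkbp5 -1.04 log2, adjusted p 0.0994), and on control Txnip and Rhou in SCN (0.0575 and 0.0818) and Tob2 in liver (0.0726) lost their rhythm, while Tob2 in SCN gained it (0.0499). The fits with the block also left out control CT08 a and b, which have no number, so the 2 changes cannot be told apart. Sex cannot be separated from the replicate block.

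Leaving out all libraries of 1 replicate number gave 2 to 4 members for the liver mean over 6 times (3 to 4 when 1 library was left out), 2 to 3 members with a rhythm in SCN on control, 0 to 4 in liver on control and 2 to 6 in liver on MCD. It gave 1 to 6 called pairs of gene and time in liver, 0 to 1 members in the liver rhythm difference, 0 by sex in liver, 0 to 1 in the sex-by-diet difference, 0 to 1 by sex in SCN and 1 to 3 in the tissue difference. Leaving out 1 library gave 2 to 6 members for the SCN control rhythm (2 without control CT12 1), 3 to 5 for the liver control rhythm, 5 to 6 for the liver MCD rhythm, 7 to 9 pairs, 0 to 1 for the liver rhythm difference and the sex-by-diet difference, 2 to 3 by sex in liver and 0 to 2 by sex in SCN. It was not run for the tissue difference. The fits within each kind of liver library and the SCN rhythm difference were chosen after seeing the data. At CT08 in liver, 1212 genes were called without the library labelled control CT08 (a) and 263 with it. Members had at least 236 reads in every library. The causes of these changes were not tested.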
